A study of Mus musculus with 12 samples.

Results

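The 10 genes described here encode receptors that guide T-cell progenitors and thymocytes into, through and out of the thymus, together with 1 transcription factor of thymic exit. They are the chemokine receptor genes Ccr2, Ccr4, Ccr7, Ccr8, Ccr9, Cxcr3, Cxcr4 and Cxcr5, the sphingosine 1-phosphate receptor gene S1pr1 and the transcription factor gene Klf2. They were chosen by name out of 50600 genes counted, with earlier results of these data known, and all 10 were among the 16052 genes that passed the filter on low counts and were tested. RNA was sequenced from the thymus or tumor of 12 mice on a mixed C57Bl/6xSV/129 background, 3 in each of 4 groups. Ctrl mice carried the DNMT1 fl/fl allele without Cre and were 20 to 25 wk old. KO mice carried DNMT1 fl/fl with CD4-CRE, which deletes the maintenance DNA methyltransferase gene Dnmt1 in cells that express Cd4, and were 20 to 21 wk old. ALKKO mice carried the same alleles and the NPM-ALK transgene, a human oncogenic fusion kinase driven by the Cd4 enhancer and promoter, and were 19 to 25 wk old. ALK mice were NPM-ALK+ and 22 to 31 wk old, and their samples are labelled T cell lymphoma cells where those of the other groups are labelled thymocytes; the label does not say whether ALK mice carried a floxed Dnmt1 allele. The loxP-flanked allele is thus shared by Ctrl, KO and ALKKO, and both Cre and the transgene act through Cd4 sequences.

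Chemokine receptors are G protein-coupled receptors that steer cells up gradients of chemokines released by stromal cells. Progenitors enter the thymus with the help of CCR9 and CCR7, whose ligands are CCL25 and CCL19 or CCL21, and CXCR4 with its ligand CXCL12 holds immature thymocytes in the cortex. CCR4 is switched on after positive selection and CCR7 draws selected cells to the medulla, where CCR8 also appears on mature cells. Mature thymocytes leave once the transcription factor KLF2 has switched on S1PR1, the receptor for the sphingosine 1-phosphate of the blood, a step that the early activation antigen CD69 opposes by taking S1PR1 off the surface. CCR2, CXCR3 and CXCR5 are better known from monocytes and recirculating cells, from effector T cells and from B cells and follicular helper T cells.

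Of the 10 genes, 7 had an upstream sequence in the RefSeq table used here (GRCm38.p6), which gives 250 bases before and 50 bases after a start site. The sequences of the 3 members that fell in ALK cells (below) and of Cxcr4, the most abundant member, are shown because they differ in CpG dinucleotides, the bases that DNMT1 methylates. Capitals mark each CpG, and every sequence reads 5′ to 3′ on the strand of its gene. The Ccr9 window lies on the plus strand at chr9:123766961-123767260, Ccr8 on the plus strand at chr9:120091883-120092182, Ccr4 on the minus strand at chr9:114496495-114496794 and Cxcr4 on the minus strand at chr1:128592250-128592549.
Ccr9: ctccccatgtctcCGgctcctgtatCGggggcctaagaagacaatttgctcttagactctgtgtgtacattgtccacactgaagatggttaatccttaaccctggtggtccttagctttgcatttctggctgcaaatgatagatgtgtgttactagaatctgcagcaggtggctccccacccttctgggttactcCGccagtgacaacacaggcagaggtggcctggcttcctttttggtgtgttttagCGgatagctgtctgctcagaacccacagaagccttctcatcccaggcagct
Ccr8: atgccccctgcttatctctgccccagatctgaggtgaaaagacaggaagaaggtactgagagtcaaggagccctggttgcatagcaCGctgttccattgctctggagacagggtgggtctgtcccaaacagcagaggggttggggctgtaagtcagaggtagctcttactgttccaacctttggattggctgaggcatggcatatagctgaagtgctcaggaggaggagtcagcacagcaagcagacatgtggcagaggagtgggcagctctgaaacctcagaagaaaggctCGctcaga
Ccr4: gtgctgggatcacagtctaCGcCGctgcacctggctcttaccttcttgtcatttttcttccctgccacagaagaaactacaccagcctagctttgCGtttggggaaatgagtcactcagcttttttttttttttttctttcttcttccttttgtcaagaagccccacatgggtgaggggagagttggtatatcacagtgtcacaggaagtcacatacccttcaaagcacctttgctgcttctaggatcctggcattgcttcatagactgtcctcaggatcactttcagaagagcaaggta
Cxcr4: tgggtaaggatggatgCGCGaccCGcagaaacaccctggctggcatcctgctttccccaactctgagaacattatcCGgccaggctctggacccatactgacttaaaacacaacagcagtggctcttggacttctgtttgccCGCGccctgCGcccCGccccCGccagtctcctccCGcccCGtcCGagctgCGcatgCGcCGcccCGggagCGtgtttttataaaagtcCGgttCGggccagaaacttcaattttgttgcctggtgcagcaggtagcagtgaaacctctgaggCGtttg

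The windows of Ccr9, Ccr8 and Ccr4 held 4, 2 and 3 CpG dinucleotides in 300 bases, and that of Cxcr4 held 20. Across all 32851 promoters of the table the median was 7. Of the members not printed, Ccr2 had 1 CpG, Cxcr3 had 4 and Klf2 had 32, more than in 90.5% of all promoters. Motifs were searched on both strands, no window held more than 1 of them, and all that were searched are given. CACCC, letters that KLF factors are known to bind, was present in 5 of the 7 windows, namely those of Ccr4, Ccr8, Ccr9, Cxcr4 and Klf2, against 57.5% of all promoters. TGTGGT, the core of RUNX sites, was present only in the window of Cxcr3 (2 matches), against 16.8% of all promoters. TTCNNNGAA, the STAT element, and TGTTTAC, a forkhead element, were in 0 of the 7 windows, against 8.30% and 3.65% of all promoters. DNA methylation was not analysed here, so the CpG counts describe the sequence only.

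In GRCm38, Ccr9 (chr9:123678439-123784330), Ccr2 (chr9:124101950-124113557), Ccr8 (chr9:120092114-120094906), Ccr4 (chr9:114490316-114504916) and Cxcr5 (chr9:44511787-44561877) all lie on chromosome 9. Ccr7 lies at chr11:99144196-99155077, Cxcr4 at chr1:128588199-128592293, Cxcr3 at chrX:101731535-101734269, S1pr1 at chr3:115710433-115715072 and Klf2 at chr8:72319033-72321656, and each value below counts reads over the exons of the whole gene. Exons of Ccr9 overlap those of AC165425.1 on the opposite strand over 1932 bp, and exons of Cxcr5 overlap Bcl9l on the opposite strand over 110 bp. The strand setting of the counting is not given in the sources used here, so for these genes reads of the partner cannot be told apart.

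Between 12473857 and 18864327 reads were counted on genes per library, and values are given as CPM, a gene's share of the counted reads, scaled by TMM factors. Dnmt1 was at 400 to 487 CPM in Ctrl, 206 to 244 in KO, 205 to 244 in ALKKO and 379 to 788 in ALK, and the mouse Alk row was at 34.9 to 55.0 CPM in ALK and ALKKO and at most 0.431 CPM in the other groups, so both checks matched the labels. The double-positive stage markers summed to 7556 to 9987 CPM in Ctrl, ALKKO and KO replicates 1 and 3, but Cd8a, a defining marker of that stage, was at 10.4, 200 and 292 CPM in ALK against 1985 to 2256 CPM in Ctrl. Other markers of the list did not fall with it: Ptcra was at 424, 142 and 32.5 CPM in ALK against 46.3 to 49.0 CPM in Ctrl, and Arpp21 at 611, 748 and 460 CPM against 571 to 643 CPM. Rag1 and Itgam are listed at 0 in every library and were not read as markers. KO replicate 2, from the only female mouse, stood apart before any comparison: its double-positive sum was 3163 CPM, its B-cell marker sum 2852 CPM against at most 146 CPM in each other library, and its monocyte and macrophage sum 2899 CPM against at most 1191 CPM. Among the lymphomas, ALK replicate 3, from the oldest mouse, had a mature single-positive marker sum of 1753 CPM against 424 and 566 CPM in the other two. In bulk samples, fewer cells of a type and less RNA per cell cannot be told apart.

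Within the Ctrl thymus the members spanned a wide range of levels. Per kilobase of the principal transcript, Cxcr4 was the highest at 246 ± 22.7 CPM per kb (SD, n = 3), followed by Ccr9 at 159 ± 19.0, Ccr7 at 36.6 ± 8.47 and Klf2 at 18 ± 3.04, and no neighbours among these overlapped. Ccr4 (12.9 ± 1.44 CPM per kb) and S1pr1 (12.2 ± 4.4) overlapped each other, as did Cxcr3 (3.28 ± 0.469) with Ccr8 (3.21 ± 0.415) and Ccr2 (1.93 ± 0.366) with Cxcr5 (1.60 ± 0.406). In ALK cells Cxcr4 again led, at 137 ± 12.4 CPM per kb, but Ccr9 stood in the fifth place at 5.13 ± 7.38 CPM per kb, and every neighbour from Ccr7 down to Cxcr3 overlapped.

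**Figure D1:**
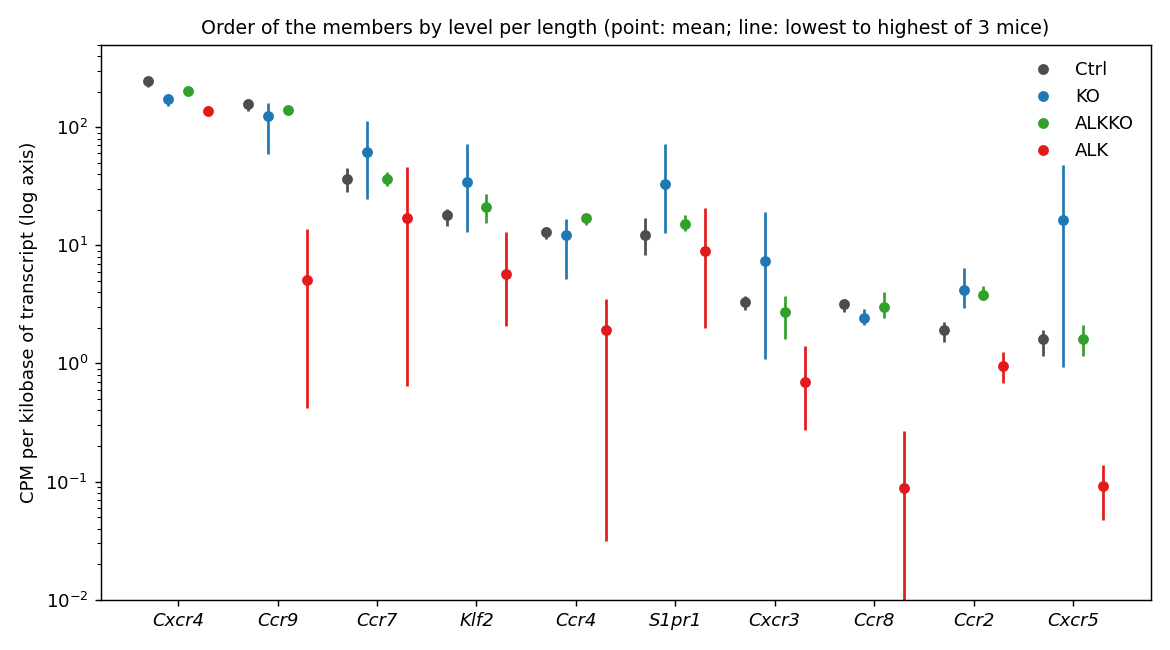
Level of the 10 genes in CPM per kilobase of the principal transcript (log axis), ordered as in Ctrl, with the mean as a point and the lowest to highest of 3 mice as a line. Cxcr4 leads in all groups, Ccr9 leaves the second place only in ALK, and the Ccr8 line of ALK runs off the axis because 2 of its libraries had no count.

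The comparison of ALK with Ctrl asked how the lymphoma cells differ from thymocytes. The members were lower as a set of values: 3 of 10 fell (Ccr9, Ccr8 and Ccr4), 0 rose, and all 10 log2 fold changes were below 0, with a median of -1.95 against 0.05 over all genes tested. Across all 16052 genes, 20.4% were called, 12% lower and 8.41% higher, where called means that the adjusted p lay below 0.05 and that the log2 fold change exceeded 1 in size. In 8 of 10 members the ALK and Ctrl libraries did not overlap, against 46.4% of all genes. DESeq2 called 4 of the 8 members for which it gave an adjusted p, namely Ccr2, Ccr4, Ccr8 and Cxcr3. The call count depended on single libraries: it was 5 without ALK replicate 3 (Ccr2, Ccr7, Ccr8, Ccr9 and Klf2) and 6 when KO replicate 2 was left out of the shared estimate of the spread, which added Ccr2, Cxcr3 and Cxcr5.

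**Figure D2:**
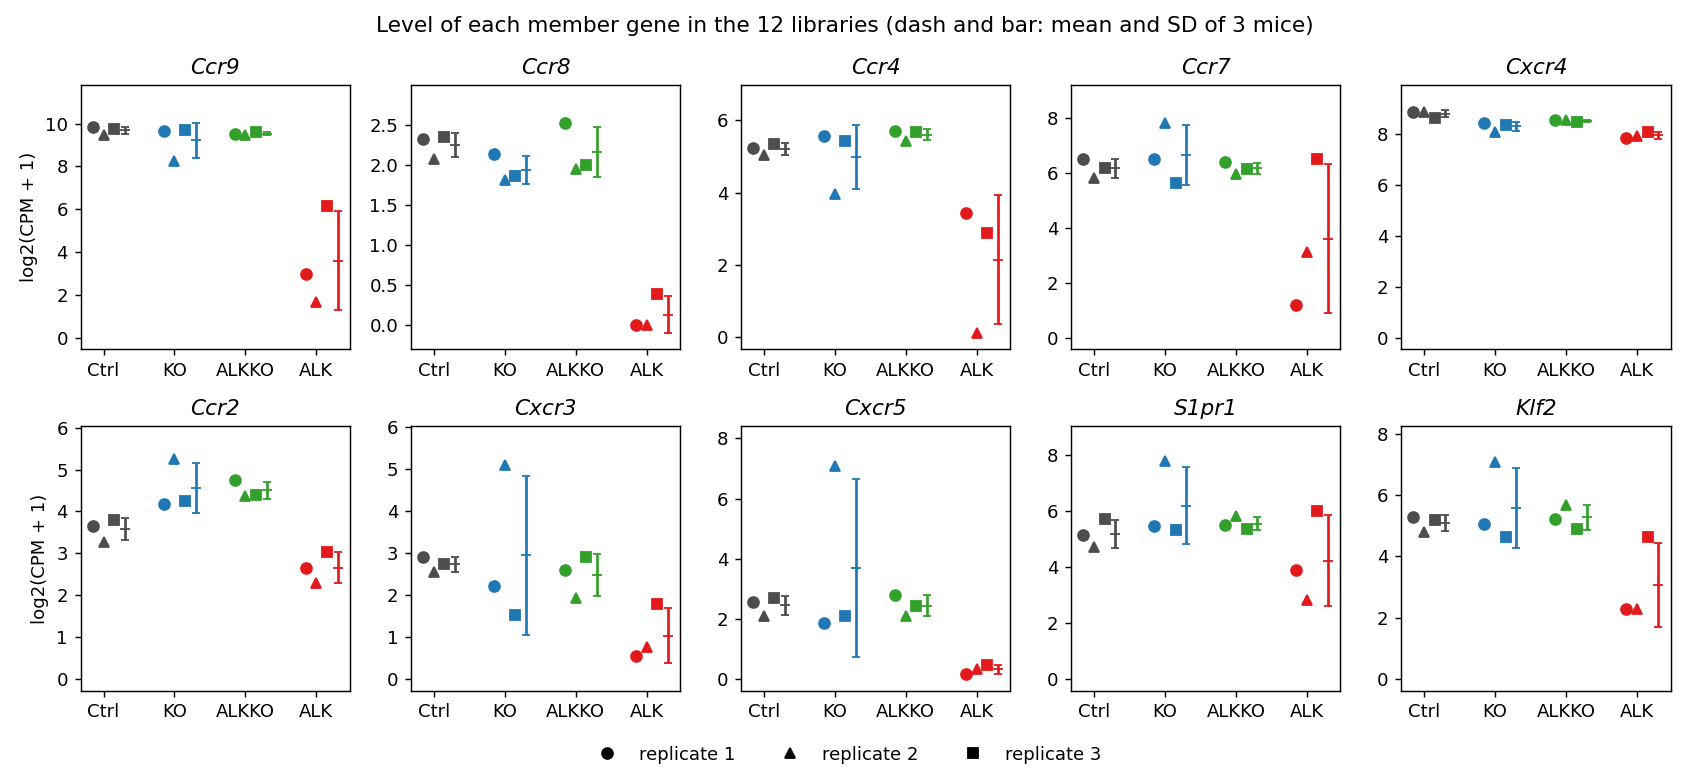
Level of each gene as log2(CPM + 1) in the 12 libraries, with a symbol per replicate and the group mean and SD (n = 3) at the right of each group. ALK libraries lie below all others for Ccr9, Ccr8, Ccr4, Ccr2 and Cxcr5, ALK replicate 3 (square) is the high one for Ccr9 and Ccr7, and KO replicate 2 (triangle) is the highest library for Cxcr5 and S1pr1.

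Ccr9, the receptor for the thymic chemokine CCL25, was at 907, 715 and 851 CPM in Ctrl and at 6.92, 2.18 and 70.9 CPM in ALK. The groups were far apart, although the third ALK library was well above the other two. Ccr9 fell by 4.95 on the log2 scale (SE 1.06, adjusted p = 0.00703, edgeR quasi-likelihood test), which the means give as 30.9-fold. Leaving out any 1 library of the 2 groups kept the call, with log2 fold changes of -7.50 to -4.43, and the fall was largest without ALK replicate 3.

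Ccr8, the receptor for CCL1, was expressed at a low level in Ctrl, at 4.02, 3.22 and 4.1 CPM. In ALK it had 0, 0 and 4 reads against 60 to 76 reads in Ctrl, so that 2 ALK libraries were below the floor that 3 counts set. It fell by 5.09 on the log2 scale (SE 0.888, adjusted p = 0.00283, edgeR), and with so few reads in ALK the size of the fold is imprecise (95% interval -7.05 to -3.12); without ALK replicate 3, which held all 4 reads, it was -8.93 and depended on the prior count of the fit.

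Ccr4, the receptor for CCL17 and CCL22, was at 36.8, 31.8 and 39.8 CPM in Ctrl and at 9.88, 0.0873 and 6.33 CPM in ALK, the second ALK library being a single read. Ctrl was above ALK without overlap. It fell by 2.72 on the log2 scale (SE 0.885, adjusted p = 0.0412, edgeR), and this call was lost without any 1 Ctrl library (adjusted p = 0.0771 to 0.0929) and without ALK replicate 3 (adjusted p = 0.067).

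Cxcr4, the receptor for CXCL12, was the member with the tightest replicates. It was at 467, 470 and 397 CPM in Ctrl and at 228, 240 and 272 CPM in ALK, every ALK library being below every Ctrl library. The log2 fold change was -0.85 (SE 0.134, adjusted p = 0.00177, edgeR), past the p threshold but under the fold threshold. Ccr2, a receptor of monocyte recruitment, was at 11.6, 8.74 and 12.8 CPM in Ctrl and at 5.24, 3.93 and 7.19 CPM in ALK, again without overlap, and its log2 fold change of -1.02 missed the threshold (SE 0.352, adjusted p = 0.0517, edgeR), although DESeq2 called it.

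The exit genes and Ccr7 differed widely among the lymphomas. Ccr7 was at 1.28, 7.68 and 91.2 CPM in ALK against 89.3, 55.7 and 72.4 CPM in Ctrl, so the third lymphoma was above every Ctrl library. S1pr1 was at 13.8, 6.02 and 62.6 CPM in ALK against 34.4, 25.3 and 51.7 CPM in Ctrl, again with the third ALK library the highest of the 6. Klf2 was at 3.90, 3.84 and 24.0 CPM in ALK against 37.8, 27.0 and 35.2 CPM in Ctrl, without overlap. None of the 3 passed the test: the log2 fold changes were -1.12 for Ccr7 (95% interval -3.48 to 1.24, adjusted p = 0.454), -0.43 for S1pr1 (-2.26 to 1.40, adjusted p = 0.723) and -1.65 for Klf2 (-3.40 to 0.09, adjusted p = 0.135), all by edgeR. Without ALK replicate 3, Ccr7 was at -4.05 (adjusted p = 0.00662) and Klf2 at -3.12 (adjusted p = 0.0112), while S1pr1 at -1.91 was not called. The same library had the highest mature single-positive and monocyte and macrophage sums of the lymphomas, and the part of these cells in its values was not tested.

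Cxcr5 and Cxcr3 were low in both groups. Cxcr5 had 2, 3 and 5 reads in ALK (0.134, 0.262 and 0.391 CPM) against 4.91, 3.27 and 5.50 CPM in Ctrl, and Cxcr3 was at 0.470, 0.698 and 2.42 CPM in ALK against 6.50, 4.88 and 5.66 CPM in Ctrl. Neither gene overlapped between the groups, and neither was called in edgeR (DESeq2 called Cxcr3 and gave no adjusted p for Cxcr5), with log2 fold changes of -4.1 (SE 1.45, adjusted p = 0.0551) and -2.24 (SE 1.0, adjusted p = 0.115). Both were called once KO replicate 2 was left out of the spread estimate (adjusted p = 0.000423 for Cxcr5 and 0.0204 for Cxcr3). B-cell markers moved in the same direction: in Ctrl their sum was 82.3 to 140 CPM, in ALK 10.1 to 22.8 CPM, and it was 89.0 to 146 CPM in ALKKO and 87.9 to 2852 CPM in KO. All 10 of the list had log2 fold changes below 0 and 2 of 10 were called lower, against 12% of all genes. The part of B cells in the Cxcr5 values was not tested.

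**Figure D3:**
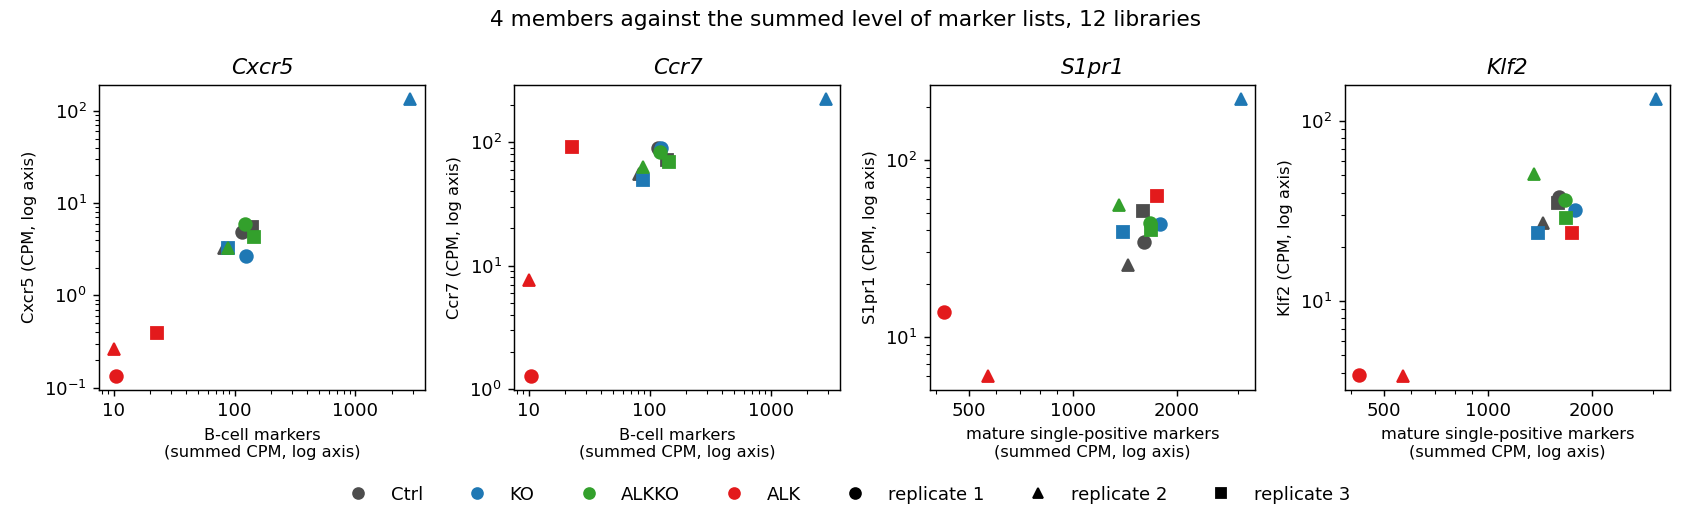
Cxcr5 and Ccr7 against the summed CPM of 10 B-cell markers, and S1pr1 and Klf2 against the sum of 12 mature single-positive markers, in 12 libraries (log axes; colour is the group, symbol the replicate). KO replicate 2 lies at the upper right in every panel, and ALK replicate 3 lies apart from the other two lymphomas for Ccr7, S1pr1 and Klf2.

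The comparison of ALK with ALKKO, which differ in the deletion of Dnmt1 and also in being tumor cells or thymocytes, gave values close to those against Ctrl. Of the 10 members, 4 fell in ALK (Ccr9, Ccr8, Ccr4 and Ccr2) and 0 rose, against 19.6% of all genes called, 12.6% lower and 7.03% higher. DESeq2 called 4 of the 8 with an adjusted p, namely Ccr2, Ccr4, Ccr8 and Klf2. The edgeR count was 7 without KO replicate 2, which added Cxcr3, Cxcr5 and Klf2. All 10 log2 fold changes were below 0 (median -1.99, against 0.03 over all genes), and 8 of 10 members did not overlap, against 43.2% of all genes. ALK libraries enter both comparisons, so the sets of values are not independent.

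**Figure D4:**
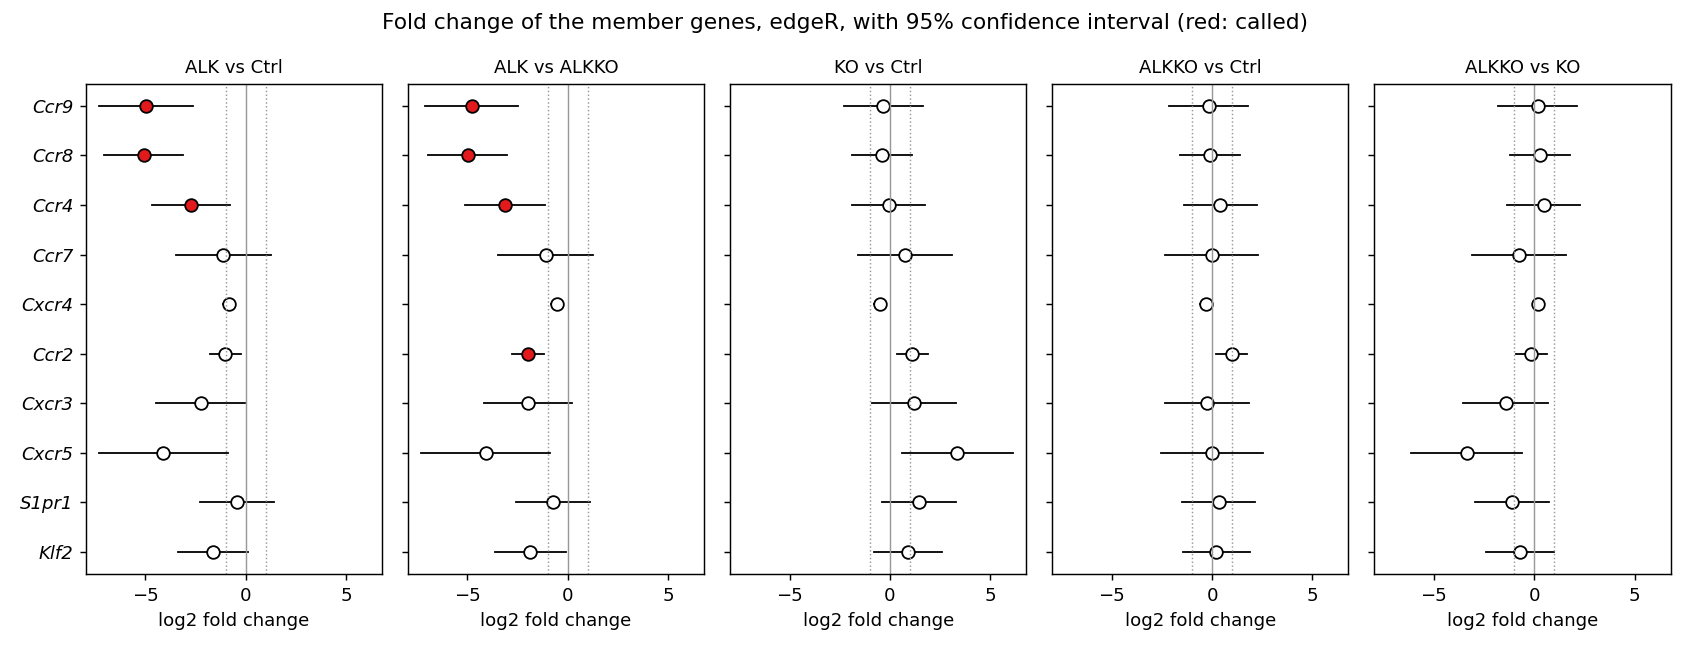
Log2 fold change (first group minus second) of the 10 genes in the 5 comparisons, with the 95% interval as a line, filled red where called; dotted lines mark a log2 fold change of 1 in either direction. The 3 calls in ALK against Ctrl and the 4 against ALKKO lie left of 0, and no member is called in the other comparisons.

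Ccr9 was at 723, 704 and 771 CPM in ALKKO, close to Ctrl and above all ALK libraries, with a log2 fold change of ALK over ALKKO of -4.78 (SE 1.05, adjusted p = 0.00836, edgeR). Ccr8 was at 4.72, 2.87 and 3.0 CPM in ALKKO and Ccr4 at 51.4, 41.7 and 50.1 CPM, with log2 fold changes of -4.99 (adjusted p = 0.00325) and -3.12 (adjusted p = 0.0268) in edgeR. Without ALK replicate 3 the values of Ccr9 and Ccr8 were -7.32 and -8.83, and the Ccr4 call was lost without any 1 ALKKO library. Ccr2 was at 25.8, 19.6 and 20.1 CPM in ALKKO, above every Ctrl and ALK library, and the log2 fold change of ALK over ALKKO was -2.0 (SE 0.360, adjusted p = 0.00345, edgeR). Monocyte and macrophage markers summed to 880 to 948 CPM in ALKKO, 689 to 762 CPM in Ctrl and, in ALK, 431 to 1191 CPM. In ALKKO over Ctrl all 9 tested markers had log2 fold changes above 0, and 0 were called. Of the 9, 6 did not overlap, against 17.5% of all genes, 9.92% being higher in ALKKO. Against ALKKO, 1 of the 9, Ly6c2, was called lower in ALK, as 12.6% of all genes were. Ly6c2 was at 0.470, 0.524 and 2.03 CPM in ALK against 14.8 to 30.3 CPM in ALKKO. The part of these cells in the Ccr2 values was not tested.

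Cxcr4 was at 372.3, 371.8 and 351 CPM in ALKKO, between Ctrl and ALK without overlapping either, and its ALK over ALKKO log2 fold change was -0.57 (SE 0.133, adjusted p = 0.0113, edgeR), under the fold threshold. The exit genes in ALKKO overlapped Ctrl: S1pr1 was at 44.0, 55.3 and 40.0 CPM and Klf2 at 36.4, 50.7 and 28.8 CPM. Ccr7 was at 83.0, 62.4 and 69.2 CPM, Cxcr5 at 5.99, 3.29 and 4.34 CPM and Cxcr3 at 5.02, 2.81 and 6.45 CPM. In edgeR none of these 5 was called in ALK against ALKKO, with adjusted p from 0.0576 for Cxcr5 to 0.524 for S1pr1, while DESeq2 called Klf2. Without ALK replicate 3, Ccr7 (log2 fold change -4.03, adjusted p = 0.00698) and Klf2 (-3.32, adjusted p = 0.00886) were called.

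Deletion of Dnmt1 in thymocytes without the transgene changed no member past the thresholds, with or without KO replicate 2. The sign of some fold changes that were not called depended on that library. In KO against Ctrl, 0 of 10 were called by edgeR, against 0.0187% of all genes, and 3 of 10 had an unadjusted p under 0.05 (Cxcr4, Ccr2 and Cxcr5), against 5.52% of all genes. DESeq2 also called 0 of the 8 members for which it gave an adjusted p, although Cxcr4 passed its p threshold (adjusted p = 0.0308). Cxcr4 was at 346, 272 and 330 CPM in KO, below all Ctrl libraries, with a log2 fold change of -0.49 (95% interval -0.79 to -0.20, adjusted p = 0.864, edgeR). Ccr2 was at 17.0, 37.0 and 18 CPM, above all Ctrl libraries, with a log2 fold change of 1.12 (0.35 to 1.89, adjusted p = 0.864), which was 0.67 without KO replicate 2. Over all genes, 12.4% did not overlap between KO and Ctrl, 6.24% being lower in KO and 6.19% higher.

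KO replicate 2 was the highest of all 12 libraries for Ccr2, Ccr7, Cxcr3, Cxcr5, S1pr1 and Klf2. Cxcr5 was at 135 CPM there and at 2.65 and 3.24 CPM in the other two KO libraries. Ccr7 was at 225 CPM against 89.3 and 48.9, S1pr1 at 221 CPM against 43.5 and 39.0, Klf2 at 133 CPM against 32.2 and 23.7, and Cxcr3 at 33.1 CPM against 3.60 and 1.89. In the opposite direction, Ccr9 was at 309 CPM there against 813 and 834, and Ccr4 at 14.6 CPM against 46.7 and 42.1. Without this library the KO over Ctrl log2 fold changes of Ccr7, Cxcr3, Cxcr5 and Klf2 turned from 0.74, 1.17, 3.36 and 0.92 to -0.07, -1.04, -0.63 and -0.25, and none was called. In that library all 10 B-cell markers were above every other library (Cd79b at 401 CPM), the mature single-positive sum was 3060 CPM against at most 1785 CPM elsewhere, and the thymic epithelial sum was 173 CPM against 1498 and 1789 CPM in the other KO libraries. The part of these cells in its values was not tested, and its sex and its other differences cannot be told apart.

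ALKKO and Ctrl thymocytes also had no called member. In ALKKO against Ctrl 0 of 10 were called by edgeR and 0 of 8 by DESeq2, against 0.181% of all genes in edgeR, and 1 of 10, Ccr2, had an unadjusted p under 0.05, against 3.18%. The Ccr2 log2 fold change was 0.98 (95% interval 0.21 to 1.75, adjusted p = 1.0). The groups did not overlap for Ccr2, Ccr4 or Cxcr4, that is for 3 of 10 against 17.5% of all genes; Cxcr4 was lower in ALKKO, as 7.56% of all genes were, and Ccr2 and Ccr4 were higher, as 9.92% were. For Ccr9, Ccr7 and S1pr1 the intervals were wide (-2.14 to 1.80, -2.34 to 2.30 and -1.50 to 2.14), so equal levels were not shown. ALKKO against KO had 0 of 10 called by edgeR and 0 of 8 by DESeq2, against 0.00623% of all genes, and 1 of 10, Cxcr5, had an unadjusted p under 0.05 (log2 fold change -3.37), against 2.69%; it was 0.62 without KO replicate 2.

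Whether the deletion went with a different change in mice with and without NPM-ALK was tested as an interaction, added after the data were seen. Of the 10 members 3 passed, Ccr9, Ccr8 and Cxcr4, all with a difference above 0, against 8.93% of all genes called and 5.62% called with a difference above 0. Without 1 library the count was 2 or 4, and the Ccr9 call was lost in 9 of the 12 such fits. Each of the 3 was higher in ALKKO than in ALK. In KO over Ctrl the log2 fold change was -0.49 for Cxcr4 (95% interval -0.79 to -0.20, not adjusted for the number of genes tested). Cxcr4 was not called there (adjusted p = 0.864, edgeR). For Ccr9 (-0.34, -2.31 to 1.64) and Ccr8 (-0.41, -1.90 to 1.08) the interval included 0, so a fall in KO was not shown. Without 1 library the Ccr9 value ranged from -0.57 to 0.0025. The interaction values are given with the additional observations.

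The genes around the receptors were read from lists of their pathway, whose counts in ALK against Ctrl stand beside the 12% of all genes called lower and the 8.41% called higher. Of the chemokines that bind the member receptors, 14 of 15 were tested, and in ALK against Ctrl 7 fell and 1 rose, with a median log2 fold change of -2.85, or -2.51 with Cxcl11 set at the bound its missing reads allow. Cxcl12, the ligand of CXCR4, was at 266, 324 and 303 CPM in Ctrl and at 21.2, 15.7 and 17.8 CPM in ALK (log2 fold change -4.03, adjusted p = 1.58e-06, edgeR). Ccl22, a ligand of CCR4 and also a dendritic-cell marker here, was at 54.1, 30.3 and 68.7 CPM in Ctrl and at 0.269, 0.262 and 0.860 CPM in ALK. Cxcl10, a ligand of CXCR3, was at 24.9, 26.2 and 18.1 CPM in Ctrl and at most 0.605 CPM in ALK. Cxcl11, named for another, had no read in ALK against 1.27, 3.27 and 1.13 CPM in Ctrl, at least 8.12-fold lower. The annotation lists Cxcl11 as a polymorphic pseudogene, and which allele these mice carried was not tested. Ccl25, the ligand of CCR9, was at 449 to 514 CPM in Ctrl and at 26.3, 34.0 and 43.2 CPM in ALK, and it was at 314 to 343 CPM in ALKKO. The 1 rise was Ccl8, at 54.2, 72.7 and 8.60 CPM in ALK against 6.09 to 7.67 CPM in Ctrl.

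These chemokines are made mainly by stroma and antigen-presenting cells, and the marker lists of those cells did not move alike. Their counts in ALK against Ctrl stand beside the 12% of all genes called lower and the 8.41% called higher. Thymic epithelial markers summed to 1656 to 1900 CPM in Ctrl, 1065 to 1314 CPM in ALKKO and 11.4 to 220 CPM in ALK, with 6 of 9 lower; Prss16, a protease of cortical epithelium, was at 0.739, 2.88 and 2.82 CPM in ALK against 878 to 1097 CPM in Ctrl. Dendritic-cell markers had sums of 130 to 213 CPM in Ctrl against 25.1 to 54.6 CPM in ALK, with 6 of 9 lower. Fibroblast markers had sums of 206 to 358 CPM in Ctrl against 941 to 2435 CPM in ALK, with 3 of 7 higher. The list did not move as 1: 6 log2 fold changes were above 0 and 1 was below, that of Dcn. Dcn was at 107, 83.2 and 134 CPM in Ctrl and at 45.6, 23.0 and 37.1 CPM in ALK. DESeq2 called Dcn and edgeR did not. Endothelial markers had 0 of 8 called (median log2 fold change 0.46), and monocyte and macrophage markers had 1 of 9 called lower (median 0.05). The part of these cells in the chemokine values was not tested.

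Of 14 other chemokine receptors tested, 5 fell in ALK and 0 rose (median log2 fold change -1.69). Ackr4, an atypical receptor that takes up CCL19, CCL21 and CCL25, was at 13.8, 16.8 and 16.6 CPM in Ctrl and at most 0.391 CPM in ALK. Ccr6 was at 4.6, 2.30 and 4.20 CPM in Ctrl and at most 0.391 CPM in ALK, Cxcr6 at 16.3, 9.60 and 13.3 CPM against 0.202, 0.262 and 3.68 CPM, and Ccr10 had no read in ALK against 1.48, 2.04 and 1.02 CPM. Xcr1 was the fifth. Against ALKKO, 6 of the 14 fell, namely Ackr4, Ccr3, Ccr6, Ccr10, Cxcr6 and Xcr1.

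In the sphingosine 1-phosphate pathway, 6 of 12 tested genes fell in ALK and 0 rose (median -1.33). Cd69, which opposes S1PR1, was at 84.7, 77.0 and 61.6 CPM in Ctrl, 95.9, 81.0 and 71.7 CPM in ALKKO and 2.55, 1.40 and 4.93 CPM in ALK, all far below (log2 fold change -4.64, adjusted p = 8.26e-05, edgeR). Sgpl1, the lyase that destroys sphingosine 1-phosphate, was at 313 to 355 CPM in Ctrl and 68.2, 77.4 and 132 CPM in ALK. S1pr4, a receptor of lymphocytes, was at 27.3 to 32 CPM in Ctrl and 4.64, 0.437 and 4.38 CPM in ALK. S1pr3 fell from 16.1 to 30.8 CPM in Ctrl to at most 3.36 CPM in ALK, the kinase gene Sphk1 from 6.52 to 11 CPM to at most 1.25 CPM and the phosphatase gene Plpp3 from 36.1 to 47.6 CPM to at most 14.0 CPM. Cd69, Sgpl1, S1pr4, S1pr3, Sphk1 and Plpp3 also fell against ALKKO.

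Around KLF2 and FOXO1, the factor that drives Klf2, 4 of 15 genes fell in ALK and 0 rose, with a median of -0.27. All 4 are of the KLF family: Klf4 was at 17.8, 15.2 and 20.1 CPM in Ctrl and 2.62, 1.40 and 5.01 CPM in ALK, Klf6 at 114 to 127 CPM and 59.4, 27.6 and 32.8 CPM, Klf3 at 176 to 258 CPM and 109, 63.1 and 74.1 CPM, and Klf13 at 453 to 514 CPM and 282, 133 and 273 CPM. Klf6, Klf4 and Klf13 also fell against ALKKO. Foxo1 itself was at 72.3 to 84.0 CPM in Ctrl against 54.4 to 83.5 CPM in ALK.

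Of 20 genes of receptor signalling and desensitization, 3 fell and 1 rose in ALK (median -0.41), a share close to the 20.4% of all genes called. Itgal, the integrin chain of LFA-1, was at 662, 629 and 539 CPM in Ctrl and 118, 120 and 308 CPM in ALK, the actin regulator Coro1a at 1238 to 1361 CPM and 488, 492 and 619 CPM, and Rgs2, a regulator of G protein signalling, at 43.1 to 48.0 CPM and 4.03, 4.63 and 18.8 CPM. Rgs16 rose, at 5.98, 70.5 and 12.9 CPM in ALK against 2.85 to 4.31 CPM in Ctrl. Itgal, Coro1a and Rgs2 also fell against ALKKO, and Rgs16 was not called there. In KO and ALKKO against Ctrl, and in ALKKO against KO, 0 genes of these 5 lists were called by edgeR or by DESeq2. In edgeR, 0 to 4 genes of a list had an unadjusted p under 0.05, against 5.52%, 3.18% and 2.69% of all genes. The 4 were among the other chemokine receptors in KO against Ctrl, out of 14 tested. All 14 had log2 fold changes above 0 there, with a median of 0.97 and KO replicate 2 included.

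The remaining marker lists were read for the cells that could carry the receptors, again beside the 12% of all genes called lower and the 8.41% called higher. Double-positive stage markers were lower for 5 of 10 in ALK (sum 2469 to 4324 CPM), with Dntt at 1605, 2942 and 1054 CPM in ALK against 1828 to 2061 CPM in Ctrl, and mature single-positive markers for 6 of 12, Gimap6 being at 31.6, 40.5 and 143 CPM against 248 to 302 CPM. Regulatory T-cell markers were lower for 3 of 7 (sum 120 to 177 CPM against 254 to 267 CPM), although Il2ra stood at 54.2, 85.6 and 16.7 CPM against 55.6 to 63.9 CPM. Natural killer and innate-like T-cell markers were lower for 5 of 9 and higher for 1, Gzma, at 110, 65.0 and 437 CPM against 44.8 to 58.7 CPM. Gzma was also at 377, 337 and 260 CPM in ALKKO, where DESeq2 called it against Ctrl and against KO and edgeR did not. Whether its level marks these cells was not tested. Monocyte and macrophage markers were lower for 1 of 9 (sum 431 to 1191 CPM against 689 to 762 CPM), with Lyz2 at 222, 118 and 597 CPM against 282 to 366 CPM, and 0 of 8 endothelial and 0 of 5 erythroid markers were called. Against ALKKO 1 double-positive marker, Ptcra, was called higher in ALK, with overlapping libraries. The list of double-positive markers, like Ccr9, had its lowest value outside ALK in KO replicate 2.

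Over the 12 libraries, the gene whose log2(CPM + 1) followed each member most closely was Slamf1 for Ccr9 (Pearson r = 0.992), Macrod2 for Ccr8 (0.982), Cd3g for Ccr4 (0.976), Elmo3 for Cxcr4 (0.963), Amz1 for Ccr7 (0.982), Gna15 for Klf2 (0.981), Alox5ap for S1pr1 (0.967), Siglecg for Cxcr3 (0.989), Gm8369 for Cxcr5 (0.993) and Sema6d for Ccr2 (0.969). Without KO replicate 2 these values lay between 0.941 and 0.992. They are descriptions over libraries that share their groups, and the nearest gene was picked out of all those tested.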

How the data were processed

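Stranded poly(A) RNA of 12 mice was sequenced by the authors as single-end reads, quality-checked with FastQC, trimmed with Trim Galore and aligned to mm10 with STAR. What the authors deposited is a raw HTSeq count per gene and library, not normalized. The tools named in the submitters' processing notes also include DESeq2 and Picard 2.19.2, and the annotation release and strand setting are not given in the sources used here. Reads that aligned to several places (39.2% to 51.8% of the records) were not assigned, which lowers the counts of genes that have close copies. Groups, replicate numbers, ages and sexes came from the labels.

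From these counts, 50376 of 50600 gene IDs were matched to symbols and positions of GENCODE M21 on GRCm38. The test was the quasi-likelihood test of edgeR 4.0.16 (R 4.3.3), with TMM (factors 0.913 to 1.06), filterByExpr, 1 term per group over all 12 libraries, a robust fit, and Benjamini-Hochberg adjustment over 16052 genes. The script was tested on simulated data. Called genes had an adjusted p below 0.05 and a log2 fold change above 1 in size. Standard errors came from the F statistic. DESeq2 1.42.0 was an alternative. The floor of 3 counts equals 0.159 to 0.241 CPM before TMM, and it covers counting error only, as no molecular identifiers were used. With 3 mice a group, p-values set the difference between groups against the spread between mice within groups, estimated over all 12 libraries. Within each group no libraries were duplicates of each other (chi-square per degree of freedom 13.5 to 207). Other settings were 2 other filters, DESeq2 size factors, the replicate number, sex or age as a term, only the groups compared, and each replicate left out.

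The members and the gene lists were chosen with earlier results of these data known. Named genes were all members, in ALK against Ctrl up to 4 called genes of each pathway list with the largest change, at 1 CPM or more on average and without overlap, the called genes of the other comparisons, and the 2 most abundant genes of each marker list. Foxo1, Cd79b and Cd69 were also given as background or label checks. Ptcra, Arpp21, Dcn and Ly6c2 were named after their values were seen, and Blk, Xcr1 and Aire count only within lists. Values of a few genes that the rule or the lists name are not reported here. Genes that stand in 2 lists include Ccl22, Xcr1, Il7r, Itgb7 and Klf3. The interaction of deletion and transgene, and the fits of the ALK comparisons without KO replicate 2, were added after the data were seen. Promoter sequences were taken from RefSeq on GRCm38.p6, and CpG dinucleotides were counted and chosen for capitals after the motif search had been seen.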

Additional observations from a re-analysis of the deposited data

Results flagged for a closer look

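The effect of the Dnmt1 deletion was also set against itself in mice with and without NPM-ALK, as the ALKKO minus ALK change less the KO minus Ctrl change on the log2 scale, in the same edgeR fit. This interaction was added after the data were seen, and since ALK samples are tumor cells and the others thymocytes, the deletion and the kind of cell cannot be told apart in it. Of the 10 members 3 passed, against 8.93% of all genes called and 5.62% called with a difference above 0. The difference was 5.12 for Ccr9 (SE 1.34, adjusted p = 0.0384), 5.40 for Ccr8 (SE 1.11, adjusted p = 0.0166) and 1.06 for Cxcr4 (SE 0.188, adjusted p = 0.00959).

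Cxcr4 was the only one of the 3 in which every KO library lay below every Ctrl library while every ALKKO library lay above every ALK library. Its difference was 0.99 without KO replicate 2 and 0.99 without ALK replicate 1, just under the fold threshold, with adjusted p of 0.00737 and 0.00899. The Ccr9 call was lost without any 1 of the Ctrl, KO or ALKKO libraries (adjusted p = 0.0608 to 0.0884), with differences of 4.81 to 5.38. The Ccr8 call was kept without each library in turn, and its difference was 9.25 without ALK replicate 3, when no Ccr8 read is left in ALK and the size depends on the prior count. Ccr4 missed the threshold at 3.19 (adjusted p = 0.117) and passed without ALK replicate 2, at 2.65 (adjusted p = 0.0303). Cxcr5 was at 0.73 (adjusted p = 0.825) and passed without KO replicate 2, at 4.75 (adjusted p = 0.00379), and Ccr7 was at 0.36 (adjusted p = 0.902) and passed without ALK replicate 3, at 3.30 (adjusted p = 0.0499). How far markers of other cell types move with these differences was not tested.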

How the results depend on the processing

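Ccr8 and Ccr9 kept their calls in ALK against Ctrl and ALKKO under every setting that gave them an adjusted p; DESeq2 gave none for Ccr9 and Cxcr5, which are left out of its counts. The Ccr4 call was lost with no filter (adjusted p = 0.0742 against Ctrl and 0.0513 against ALKKO) and with only the compared groups (0.12 and 0.0998), and against Ctrl with age as a covariate (0.0639). Members called in ALK were 6 against Ctrl and 7 against ALKKO with sex as a covariate, which, with 1 female mouse, takes out KO replicate 2, and 2 against ALKKO with at least 10 counts in every library, where only 6 members are tested. Leaving out 1 library gave 2 to 6 and 3 to 7 members.

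Genes called in ALK against Ctrl were 3281, 1756 with at least 10 counts in every library and 2130 to 3787 without 1 library. Those against ALKKO were 3145, 1531 with that filter and 2049 with only the compared groups. KO against Ctrl had 3 genes, 42 with DESeq2, 0 with at least 10 counts, with the replicate block or with only the compared groups, and 0 to 3 without 1 library. ALKKO against Ctrl had 29, 98 with DESeq2, 98 with only the compared groups, 1 with at least 10 counts, 5 with the replicate block, 9 with age as a covariate and 5 to 31 without 1 library. ALKKO against KO had 1, 24 with DESeq2 and 0 with at least 10 counts. The interaction had 1433 genes, and 560 to 2219 without 1 library. Except for the filter, the cause was not tested.

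No member called lower changed sign. With sex as a covariate, KO over Ctrl turned to 0.30 for Ccr4, -0.067 for Ccr7, -1.04 for Cxcr3, -0.63 for Cxcr5 and -0.25 for Klf2, and ALKKO over KO to 0.32 for Ccr2, 0.049 for Ccr7, -0.17 for Ccr9, 0.79 for Cxcr3, 0.63 for Cxcr5, 0.17 for S1pr1 and 0.47 for Klf2. With age as a covariate, KO over Ctrl turned to 0.038 for Ccr4 and 0.056 for Ccr9, ALKKO over Ctrl to 0.15 for Ccr7 and 0.036 for Ccr9, and ALKKO over KO to -0.021 for Ccr9. Without 1 library, S1pr1 in ALK against Ctrl ranged from -1.91 to 0.017. KO over Ctrl then ranged from -0.36 to 0.30 for Ccr4, -0.066 to 1.1 for Ccr7, -0.57 to 0.0025 for Ccr9, -1.04 to 1.67 for Cxcr3, -0.63 to 3.91 for Cxcr5 and -0.25 to 1.29 for Klf2. ALKKO over Ctrl ranged from -0.18 to 0.15 for Ccr7, -0.37 to 0.028 for Ccr8, -0.54 to 0.010 for Cxcr3, -0.27 to 0.18 for Cxcr5 and -0.036 to 0.38 for Klf2. ALKKO over KO ranged from -0.33 to 0.32 for Ccr2, -1.13 to 0.051 for Ccr7, -0.17 to 0.40 for Ccr9, -1.93 to 0.79 for Cxcr3, -3.92 to 0.62 for Cxcr5, -1.50 to 0.17 for S1pr1 and -1.09 to 0.47 for Klf2. The interaction ranged from -0.22 to 3.30 for Ccr7 and -1.13 to 0.79 for S1pr1.

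Whether the replicate numbers pair the samples could not be decided with 3 libraries a group. Deviations from the group mean correlated above 0.1 in 5 of 18 pairs with the same number and in 6 of 36 with different numbers. The medians were -0.029 and 0.012. The highest value, 0.445, was that of KO replicate 1 with ALKKO replicate 1, which share a number. With the replicate block the Cxcr5 log2 fold change of ALKKO over Ctrl was 0.00035 where it had been -0.0062, members called stayed at 3 and 4, and Ccr6 and Cxcr6 were no longer called against ALKKO. Depth limits Ccr8 and Cxcr5 in ALK, with at most 5 reads a library.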
